A study of Mus musculus with 8 samples.

Results

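Glucocorticoids, the steroid hormones of the stress axis, act in the brain through the glucocorticoid receptor and the mineralocorticoid receptor. Both are ligand-activated transcription factors that are held by chaperones until hormone binds, then move to the nucleus and bind related DNA elements. Oligodendrocytes, astrocytes, endothelial cells and neurons all respond to these hormones, and the genes that they induce are used as readouts of receptor activity. The 10 genes described here, of 41128 in the count table, were taken by symbol: the receptors Nr3c1 and Nr3c2, the co-chaperone gene Fkbp5, and the response genes Sgk1, Tsc22d3, Zbtb16, Pdk4, Cdkn1a, Errfi1 and Sult1a1. All 10 were found and all 10 passed the filter on low counts, which kept 15771 genes.

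The tissue was corpus callosum, the main white matter tract of the forebrain. The PLP-150Q strain models Huntington's disease by expressing a mutant huntingtin fragment in oligodendrocytes. Every mouse carried the transgene, so there was no wild-type group. The 4 LAQ libraries (LAQ 5 to 8) came from mice given LAQ at 5 mg/kg for 2 months from 3 months of age. LAQ is read here as laquinimod, an oral immunomodulator. The 4 control libraries (control 1 to 4) came from mice given purified water, and all mice were 5 months old at collection. The design text gives 4 mice per group, and the labels name neither a sex nor a batch.

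The libraries held 8790749 to 12021429 counted reads. The 10 oligodendrocyte markers together took 12046 to 16728 CPM (read counts scaled to a common library size), and neuronal markers were present as well, with 883 to 1832 CPM for the 8 cortical excitatory genes. LAQ 7 stood apart from the other LAQ libraries. Its chi-square per degree of freedom against them was 15.02 to 23.9, while it was 7.44 to 8.43 among LAQ 5, 6 and 8. Against the controls, LAQ 7 gave 9.33 to 13.15, which was above the 4.07 to 5.76 among controls. LAQ 7 also had the lowest cortical marker sum of the 8 libraries, 883 CPM against 1520 to 1832 CPM in control. Its striatal marker sum was the highest, 3680 CPM against 1467 to 1937 CPM in control, and LAQ 5 had the lowest, 527 CPM. The members' fold changes are given with and without LAQ 7. In such bulk tissue, fewer cells of a type and less RNA per cell cannot be told apart.

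The receptors recognise an imperfect palindrome, the glucocorticoid response element. RefSeq promoter windows (GRCm38.p6, 250 bases before to 50 after a start) were available for 8 members and gave 17 windows. Nr3c1 and Zbtb16 had none to show. The windows were searched on both strands for AGAACA, any 3 bases, then TGTTCT, allowing 2 mismatches in the 12 fixed letters. Of all 32851 windows of the table, 1.84% held such a match. Among the members 3 windows did, 2 of Sgk1 and 1 of Sult1a1. One Sgk1 window held the element without a mismatch, which only 3 of the 32851 windows did. Those 3 windows belong to Sgk1, Acnat2 and Gm35041. The shorter hexamer AGAACA alone, which is part of the full element, was found in 18.97% of all windows and in 5 of the 17 member windows. The windows of Fkbp5, Pdk4, Cdkn1a, Errfi1, Nr3c2 and Tsc22d3 held no match to the full element, which says only that these letters are not in these windows.

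The bases before the Sgk1 start at 21993890 are shown because they hold the exact element (chr10:21993640-21993889, plus strand). The element, in capitals, spans 21993701 to 21993715 and begins 189 bases before that start.

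Sgk1 exact: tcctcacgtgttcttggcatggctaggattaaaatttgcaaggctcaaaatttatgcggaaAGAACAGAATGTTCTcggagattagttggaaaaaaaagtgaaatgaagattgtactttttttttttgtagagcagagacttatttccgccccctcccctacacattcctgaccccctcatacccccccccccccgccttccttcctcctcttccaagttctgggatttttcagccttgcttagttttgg

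The 2 matches with 2 mismatches are shown for comparison, in capitals within a short stretch of flanking bases. The Sgk1 stretch is chr10:21985914-21985942 on the plus strand, and its match spans 21985921 to 21985935, beginning 183 bases before the start at 21986104. The Sult1a1 stretch is chr7:126676431-126676459 on the minus strand, and its match spans 126676438 to 126676452, beginning 34 bases before the start at 126676418.

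Sgk1 inexact: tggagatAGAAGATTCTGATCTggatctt

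Sult1a1 inexact: tttctggAGAACAGCCAGTCCTagcactg

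Sgk1 has 6 annotated starts in that table. The deposited counts sum all transcripts of a gene, so the use of any one start was not measured.

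Per kilobase of annotated exon (GENCODE M21, GRCm38), Tsc22d3 and Sgk1 were the highest members, at means of 30.2 and 29.6 CPM per kilobase over the 8 libraries, and their ranges overlapped. Errfi1 (16.5) and Nr3c1 (16.003) followed, with each the higher of the pair in 4 libraries. Pdk4 (9.37) and Nr3c2 (9.25 CPM per kilobase) formed the next pair, again ordered either way in 4 libraries each. Zbtb16 (6.19), Cdkn1a (5.41), Sult1a1 (5.10) and Fkbp5 (4.96) were lowest, and neighbours among them overlapped. The steps from Sgk1 to Errfi1 and from Nr3c1 to Pdk4 were the ones where the ranges of neighbours over the libraries did not overlap. Nr3c2 was above Zbtb16 in each of the 8 libraries, though their ranges overlapped.

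No member passed the test between LAQ and control. By edgeR's quasi-likelihood test on all 8 libraries, 0 of 10 members had a Benjamini-Hochberg adjusted p under 0.05, with 0 of 10 at an unadjusted p under 0.05. Over all genes tested these shares were 0% and 11.1%. DESeq2 called 0 members, with Nr3c2 the 1 at an unadjusted p under 0.05, and 0.837% of the genes it adjusted, and limma voom called 0 members. No member had groups without overlap, against 6.39% of all genes tested. The median log2 fold change was 0.04 over the members, 6 positive and 4 negative, and -0.00 over all genes.

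**Figure D1:**
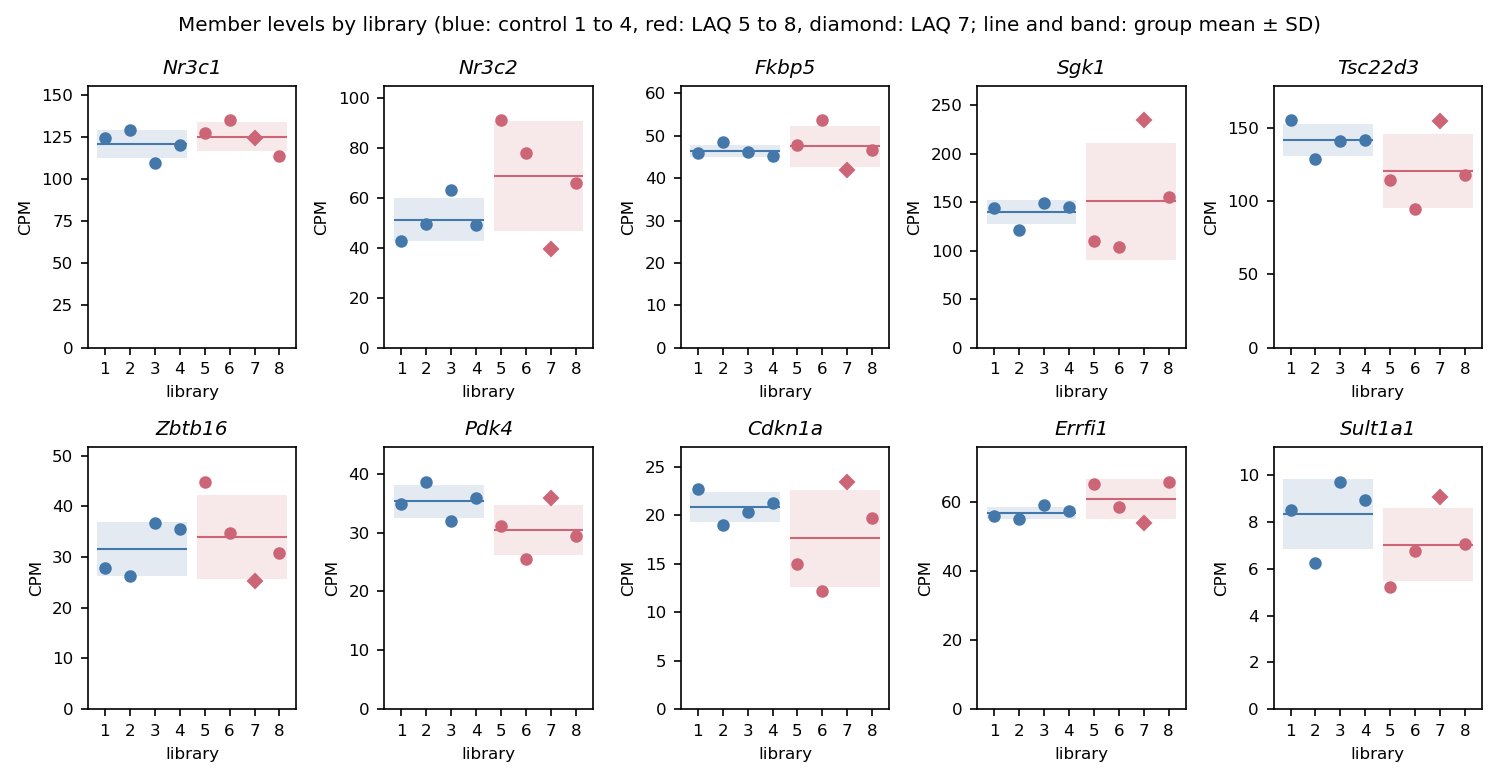
CPM of each member (vertical axes, linear and starting at 0) in the 8 libraries (horizontal axes). Blue points are controls, red points are LAQ and the diamond is LAQ 7, with the line and band giving the group mean ± SD. LAQ 7 is the lowest of the 8 libraries for Nr3c2 (39.5 CPM) and the highest for Sgk1 (234 CPM) and Cdkn1a (23.5 CPM).

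Nr3c1 encodes the glucocorticoid receptor. It stood at 124, 129, 109 and 120 CPM in control 1 to 4 and at 127, 135, 125 and 114 CPM in LAQ 5 to 8. The 2 groups covered nearly the same range. On the log2 scale LAQ minus control was 0.05 ± 0.08 (SE), with a 95% interval of -0.11 to 0.22 and an edgeR adjusted p of 0.847. Without LAQ 7 it was 0.05 as well, and it was positive under all 20 alternatives.

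Nr3c2 encodes the mineralocorticoid receptor, which binds corticosterone with high affinity and is known for its strong expression in hippocampal neurons. It stood at 42.7, 49.3, 63.2 and 49.2 CPM in control 1 to 4. The LAQ libraries held 91.1, 77.8, 39.5 and 66.0 CPM in LAQ 5 to 8. LAQ 5, 6 and 8 were above every control library, and LAQ 7 was below every control library. Controls averaged 51.1 ± 8.60 CPM (SD, n = 4) and LAQ libraries 68.6 ± 21.9 CPM (SD, n = 4). The difference was 0.43 ± 0.21 (SE) on the log2 scale, and edgeR's adjusted p was 0.468. Without LAQ 7 it was 0.62 ± 0.13 (SE; edgeR adjusted p = 0.0306), and without LAQ 5 it was 0.26 ± 0.20 (SE; edgeR adjusted p = 0.759).

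Markers of hippocampal neurons moved in the same direction as Nr3c2 between the groups. All 8 markers were higher in LAQ. Their summed level was 360 to 505 CPM in control and 503 to 719 CPM in LAQ, highest in LAQ 5 as Nr3c2 was. In LAQ 7, where Nr3c2 was lowest of the 8 libraries at 39.5 CPM, the sum was 503 CPM. That was the lowest sum among the LAQ libraries and below control 3, at 505 CPM. It was above control 1, 2 and 4, at 360, 362 and 477 CPM. None of the 8 markers was at 0. With the hippocampal marker score as a covariate the log2 fold change of Nr3c2 was -0.14 (edgeR adjusted p = 0.923), and those of Tsc22d3, Pdk4 and Cdkn1a shrank to -0.09, -0.08 and -0.01. That of Zbtb16 turned from 0.10 to -0.36 (edgeR adjusted p = 0.489). The score is not the sum but the mean of each marker's log2 CPM after scaling to its own mean and SD. The sums barely overlapped between the groups, and the overlap of the score was not computed. How far this fit can separate the score from the group is therefore not known. No conclusion is drawn from this fit, and the part of these markers was not tested further. The striatal marker sum was lowest in LAQ 5 (527 CPM) and highest in LAQ 7 (3680 CPM), opposite to Nr3c2, and its part was not tested.

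Per kilobase of exon, Nr3c1 exceeded Nr3c2 in every library. The ratio was 2.45, 2.21, 1.46 and 2.06 in control 1 to 4, and 1.18, 1.46, 2.66 and 1.45 in LAQ 5 to 8. The lowest and the highest ratio both came from LAQ libraries. The difference in mean log2 ratio was -0.32 (exact two-sided permutation p = 0.371, where the smallest possible p is 0.0286). This ratio was chosen after the members' values had been seen.

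Fkbp5 encodes FKBP51, a co-chaperone that lowers the receptor's affinity for hormone and is itself induced by it. It stood at 45.9, 48.5, 46.2 and 45.3 CPM in control 1 to 4 and at 47.9, 53.7, 41.8 and 46.7 CPM in LAQ 5 to 8. LAQ held both the highest and the lowest library. LAQ over control was 0.03 ± 0.08 (SE) on the log2 scale, with a 95% interval of -0.15 to 0.22 and an edgeR adjusted p of 0.918. Without LAQ 7 it was 0.09, and its sign changed under 4 of the 20 alternatives.

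Sgk1 encodes a serum- and glucocorticoid-regulated kinase that acts on ion channels and transporters. It stood at 144, 121, 149 and 145 CPM in control 1 to 4 and at 110.0, 104, 234 and 155 CPM in LAQ 5 to 8. LAQ 5 and 6 were below every control library, and LAQ 7 and 8 were above every one. The mean was 150.9 ± 60.2 CPM (SD, n = 4) in LAQ, beside 139.8 ± 12.5 CPM (SD, n = 4) in control. The log2 fold change was 0.11 ± 0.21 (SE; edgeR adjusted p = 0.884) and turned to -0.19 ± 0.12 (SE) without LAQ 7 (edgeR adjusted p = 0.429). Sgk1 and the oligodendrocyte markers were both highest in LAQ 7, where those markers summed to 16728 CPM. In LAQ 5 they summed to 14570 CPM, above every control library, while Sgk1 was below every one. The striatal, endothelial and blood cell marker sums were also highest in LAQ 7. The part of any of these markers in the level of Sgk1 was not tested.

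Tsc22d3 encodes GILZ, a leucine zipper protein that carries part of the anti-inflammatory action of glucocorticoids. It stood at 155, 129, 141 and 142 CPM in control 1 to 4. In LAQ 5 to 8 it stood at 114, 94.5, 155 and 118 CPM. LAQ 5, 6 and 8 were below every control library, while LAQ 7 was within the control range. Its log2 fold change was -0.24 ± 0.13 (SE; edgeR adjusted p = 0.505), and it was -0.38 ± 0.09 (SE) without LAQ 7, with an edgeR adjusted p of 0.0453. Without LAQ 6 it was -0.13 ± 0.11 (SE; edgeR adjusted p = 0.748).

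Zbtb16 encodes PLZF, a zinc finger repressor that steroid hormones induce in several tissues. It ranged from 26.2 to 36.6 CPM in control and from 25.3 to 44.9 CPM in LAQ, highest in LAQ 5 and lowest in LAQ 7. The LAQ range contained the control range. Its difference on the log2 scale was 0.10 ± 0.17 (SE; edgeR adjusted p = 0.864), which was 0.22 without LAQ 7 and turned to -0.06 without LAQ 5.

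Pdk4 encodes the kinase that shuts down pyruvate dehydrogenase and so favours fat over glucose as fuel. It stood at 34.8, 38.6, 31.9 and 35.8 CPM in control 1 to 4 and at 31.2, 25.6, 35.8 and 29.4 CPM in LAQ 5 to 8. LAQ 5, 6 and 8 were again below every control library. For Pdk4 the log2 fold change was -0.21 ± 0.11 (SE; edgeR adjusted p = 0.496), or -0.30 ± 0.10 (SE) without LAQ 7 (edgeR adjusted p = 0.132) and -0.13 ± 0.10 (SE) without LAQ 6 (edgeR adjusted p = 0.734).

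Cdkn1a encodes p21, an inhibitor of cyclin-dependent kinases that glucocorticoids and p53 both induce. It stood at 22.7, 19.0, 20.4 and 21.3 CPM in control 1 to 4 and at 14.96, 12.2, 23.5 and 19.8 CPM in LAQ 5 to 8. LAQ 6 was lowest and LAQ 7 highest of all 8 libraries. For Cdkn1a the log2 fold change was -0.24 ± 0.18 (SE; edgeR adjusted p = 0.635), or -0.42 ± 0.15 (SE) without LAQ 7 (edgeR adjusted p = 0.149) and -0.10 ± 0.15 (SE) without LAQ 6 (edgeR adjusted p = 0.873).

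Errfi1 encodes MIG6, a feedback inhibitor of the epidermal growth factor receptor. It ranged from 55.1 to 59.3 CPM in control and from 54.1 to 66.0 CPM in LAQ, a log2 difference of 0.10 ± 0.08 (SE; edgeR adjusted p = 0.688) that was 0.15 without LAQ 7 and 0.06 without LAQ 8. Sult1a1 encodes a sulfotransferase that conjugates phenols and was the least counted member, with 55 to 110 reads per library. It ranged from 6.24 to 9.72 CPM in control and from 5.24 to 9.06 CPM in LAQ, with a log2 fold change of -0.25 ± 0.20 (SE; edgeR adjusted p = 0.677). Its value was -0.40 without LAQ 7 and -0.13 without LAQ 5. Both ranges overlapped between the groups.

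**Figure D2:**
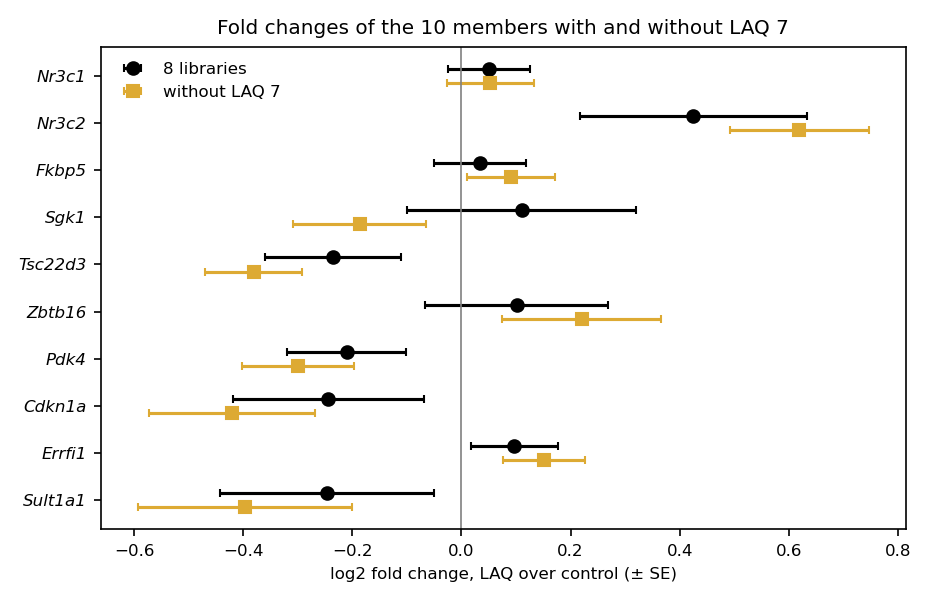
Log2 fold change of LAQ over control for each member (horizontal axis, bars are ± SE), with all 8 libraries (black circles) and without LAQ 7 (yellow squares). Nr3c2 moved from 0.43 to 0.62 and Tsc22d3 from -0.24 to -0.38, while Sgk1 changed sign from 0.11 to -0.19.

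Without LAQ 7, Nr3c2 and Tsc22d3 passed edgeR's test, 2 of 10 members against 2.13% of all genes in that fit. At an unadjusted p under 0.05 the count was 4 of 10, with Pdk4 and Cdkn1a added, against 19.7% of all genes. No member passed when any other single library was omitted. With the cortical marker score as a covariate on all 8 libraries, 4 members passed, against 1.79% of all genes. These were Nr3c2 (0.88), Sgk1 (-0.58), Tsc22d3 (-0.55) and Cdkn1a (-0.75), with the log2 fold change in parentheses. The summed cortical markers were lowest in LAQ 7, at 883 CPM against 1520 to 1832 CPM in control. The score itself was not compared between libraries, and the part of LAQ 7 in this fit was not tested. LAQ 7 was singled out because it departed from its group, so the 2 fits cannot be read as separate evidence. No conclusion is drawn from either.

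The members did not vary together as a single block over the libraries. Tsc22d3 and Cdkn1a varied in the same direction, with Pearson's r = 0.94 (exact permutation p = 0.000248, adjusted p = 0.0112 over 45 pairs) and Spearman's rho = 0.95 (exact permutation p = 0.00114) over 8 libraries. Without the 2 libraries farthest from the median of Tsc22d3 it was r = 0.87, and it was r = 0.93 without LAQ 7. Fkbp5 ran against both. Its r with Cdkn1a was -0.89 (exact permutation p = 0.00112, adjusted p = 0.0251; rho = -0.95, exact permutation p = 0.00114), or r = -0.72 without the 2 farthest libraries. Its r with Tsc22d3 was -0.88 (exact permutation p = 0.00303, adjusted p = 0.0454; rho = -0.86, exact permutation p = 0.0107), or r = -0.67 without the 2 farthest libraries.

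These 3 of 45 pairs passed an adjusted p under 0.05 by Pearson's r. The share of pairs of other genes that would pass was not computed, so the count cannot be read as particular to the members. By rho, Fkbp5 and Tsc22d3 did not pass (exact permutation adjusted p = 0.0964), while Nr3c2 and Tsc22d3 did (rho = -0.93, exact permutation adjusted p = 0.0335), though not by r (-0.83, exact permutation adjusted p = 0.0795, or -0.84 without the 2 farthest libraries). As deviations from the group means their r were 0.93, -0.94 and -0.97, but with permutation inside the groups 0 of 45 pairs passed, at a smallest exact permutation adjusted p of 0.109. That test has 576 arrangements, so 1 pair alone could not go below an adjusted p of 0.0781. Leaving out each library in turn left 0 to 5 pairs, with 0 without control 4 or LAQ 6. Fkbp5 and Sgk1, both used as readouts of receptor activity, had r = -0.90 (exact permutation p = 0.00551, adjusted p = 0.0556; rho = -0.76, exact permutation p = 0.0368), or r = -0.78 without the 2 farthest libraries, and did not pass. Among the other pairs, Nr3c2 and Zbtb16 had r = 0.82 (exact permutation p = 0.0139, adjusted p = 0.0795; rho = 0.69, exact permutation p = 0.0694), which was 0.55 without the 2 farthest libraries.

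**Figure D3:**
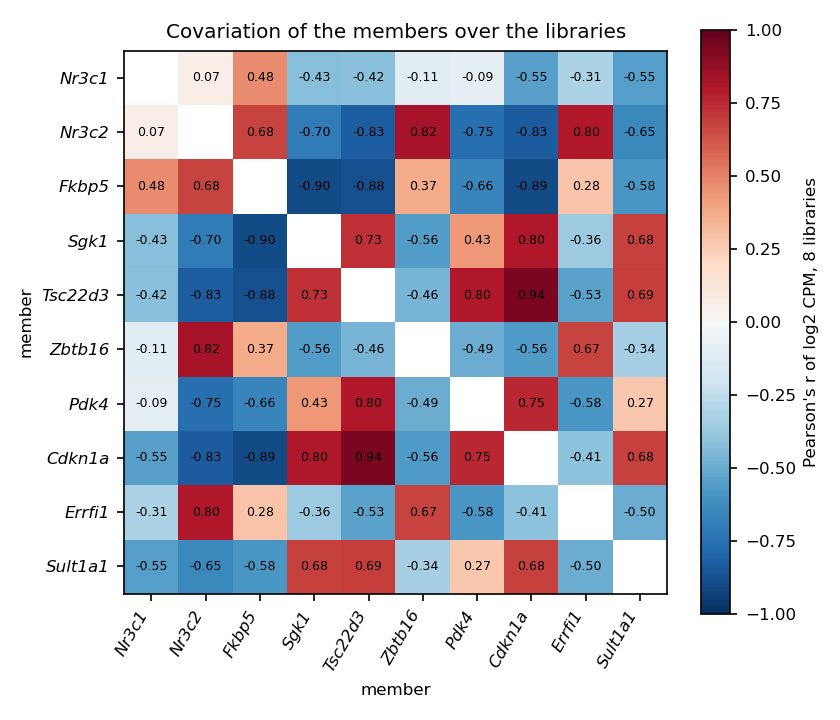
Pearson's r of log2 CPM over the 8 libraries for each of the 45 pairs of members (both axes list the members, red positive, blue negative). Tsc22d3 and Cdkn1a reach 0.94, and Fkbp5 is negative with Sgk1, Tsc22d3 and Cdkn1a, at -0.90, -0.88 and -0.89.

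The genes whose log2 CPM was most like that of a member over the 8 libraries were sought among 12875 others, and with so many genes high values are found for any pattern. For Nr3c2 they were Epha4 (r = 0.99, rho = 0.93), Map4k3 (0.99, 0.93) and Zbtb18 (0.99, 0.98). For Nr3c1 they were Srp68 (0.96, 0.88), Dhx30 (0.95, 0.93) and Susd1 (0.94, 0.88). For Fkbp5 they were Tnr (0.97, 0.95), Diras2 (0.96, 0.90) and Zfp821 (0.96, 0.95). For Sgk1 they were Kcne1l (0.99, 0.93) and Isoc1 (0.97, 0.95), and for Tsc22d3 Inadl (0.98, 0.95), Wfdc1 (0.98, 0.93) and Tnik (0.97, 0.98). No member was among the genes named.

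The wider pathway was read from 5 lists of 70 genes, of which 65 passed the filter. By edgeR's test 0 of the 65 passed the adjusted threshold, and 11 had an unadjusted p under 0.05, 4 higher and 7 lower, beside 11.1% of all genes tested. DESeq2 called 0 of them as well. Groups without overlap were found for 1 of 5 tested genes of glucocorticoid metabolism and transport and 2 of 29 other induced genes. They were also found for 1 of 7 stress peptide genes and for 0 of 11 chaperones and 0 of 13 co-regulators. Over all genes tested the share was 6.39%.

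Hsd11b1, which encodes the enzyme that regenerates active corticosterone from its inert keto form inside cells, stood at 17.8, 16.6, 20.02 and 17.8 CPM in control 1 to 4. In LAQ 5 to 8 it stood at 35.2, 32.9, 16.6 and 25.2 CPM. LAQ 5, 6 and 8 were above every control library, and LAQ 7 was level with the lowest control. The log2 fold change was 0.60 ± 0.20 (SE; edgeR adjusted p = 0.305), or 0.79 ± 0.13 (SE) without LAQ 7 (edgeR adjusted p = 0.0185). Hsd11b2, which encodes the inactivating enzyme, and Serpina6, which encodes corticosteroid-binding globulin, lay below the filter.

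Srd5a1, a steroid 5-alpha reductase gene, had groups without overlap, at 8.69 to 9.94 CPM in control and 10.7 to 15.3 CPM in LAQ, and a log2 fold change of 0.43 ± 0.15 (SE; edgeR adjusted p = 0.329). Abcb1a encodes the efflux pump that keeps some glucocorticoids out of the brain. It stood at 16.5 to 23.8 CPM in control and 7.29 to 20.4 CPM in LAQ, with a log2 fold change of -0.58 ± 0.24 (SE; edgeR adjusted p = 0.412). Without LAQ 7 it was -0.87 ± 0.20 (SE; edgeR adjusted p = 0.0404), and without LAQ 6 it was -0.38. LAQ 6 also had the lowest summed level of the 10 endothelial markers, 275 CPM against 392 to 555 CPM in the other 7 libraries, and the part of those markers was not tested.

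Among 30 other glucocorticoid-induced genes, 29 passed the filter, with a median log2 fold change of -0.01 (14 positive, 15 negative). Those of smallest p were Hif3a, a hypoxia-inducible factor subunit gene, at 2.67 to 4.87 CPM in control and 0.95 to 2.18 CPM in LAQ, and Map3k6, a stress kinase gene, at 2.63 to 3.23 CPM and 1.08 to 2.18 CPM. Both had groups without overlap, with log2 fold changes of -1.21 ± 0.31 and -0.93 ± 0.26 (SE) and edgeR adjusted p of 0.228 and 0.249. Mertk, a receptor for the clearance of dying cells, followed at -0.33 ± 0.11 (SE; edgeR adjusted p = 0.329). The clock gene Per1, named after its values were seen, stood at -0.47 ± 0.17 (SE; edgeR adjusted p = 0.349) with all 8 libraries. It passed without LAQ 7, at -0.62 ± 0.15 (SE; edgeR adjusted p = 0.0492), and was -0.34 without LAQ 6. Cebpd, also named after its values were seen, went the other way, at 0.60 ± 0.23 (SE; edgeR adjusted p = 0.376). Without LAQ 7 it was 0.73 ± 0.21 (SE; edgeR adjusted p = 0.0860). At an unadjusted edgeR p under 0.05, 2 of the 29 were higher and 5 lower, beside 11.1% of all genes tested in either direction.

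Receptor chaperones had small differences. Of 11 measured, 9 were positive with a median log2 fold change of 0.08 and a range of -0.09 to 0.16. Hsp90aa1, whose product holds the receptor in its hormone-binding form, stood at 0.01 ± 0.09 (SE), and Fkbp4, which encodes the counterpart of FKBP51 that favours nuclear transport, at 0.08 ± 0.06 (SE). Ppid (0.16 ± 0.08), Ptges3 (0.14 ± 0.08) and Stip1 (0.12 ± 0.08, SE) had the smallest p-values, with edgeR adjusted p of 0.467 to 0.612. Of 13 co-regulators 10 were negative, with a median of -0.02, and Med1 (-0.18 ± 0.10, SE) and Ncoa1 (0.13 ± 0.08, SE) had the smallest p-values.

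Of the corticotropin-releasing and stress peptide genes, 7 of 9 passed the filter. Crh, the peptide that starts the stress axis, stood at 5.54, 4.90, 4.69 and 4.06 CPM in control 1 to 4 and at 2.57, 3.42, 2.47 and 2.81 CPM in LAQ 5 to 8. All 4 LAQ libraries, LAQ 7 included, were below all 4 controls, with a log2 fold change of -0.76 ± 0.20 (SE; edgeR adjusted p = 0.228). It was -0.70 ± 0.23 (SE) without LAQ 7, and -0.87 to -0.68 over the fits that leave out a library. The receptor gene Crhr1 stood at -0.32 ± 0.15 (SE) and Pomc, the precursor of corticotropin, at -0.60 ± 0.30 (SE), with edgeR adjusted p of 0.462 and 0.473.

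**Figure D4:**
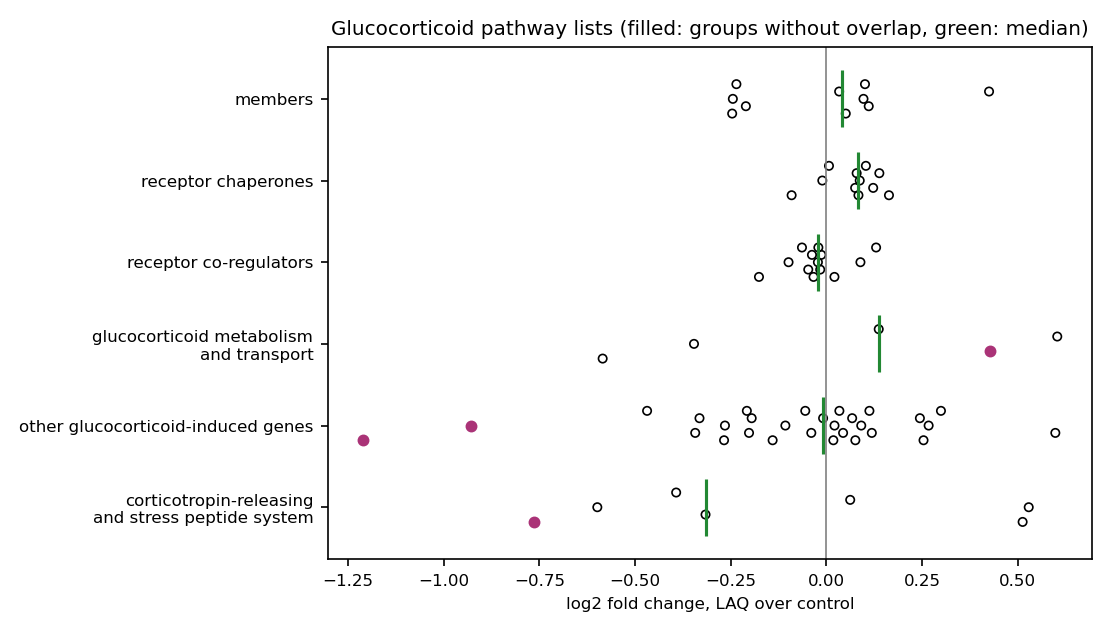
Log2 fold change of LAQ over control (horizontal axis) for each tested gene of the members and of 5 pathway lists (rows). Filled points had groups without overlap (Srd5a1 at 0.43, Hif3a at -1.21, Map3k6 at -0.93 and Crh at -0.76), and green bars are medians. These are among 65 tested pathway genes, and 6.39% of all genes tested had groups without overlap.

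Vascular markers and several members had their lowest level in the same library. The 10 endothelial markers, all lower in LAQ, summed to 438 to 543 CPM in control and 275 to 555 CPM in LAQ, lowest in LAQ 6 and highest in LAQ 7. The 8 mural markers ran the same way, at 257 to 339 CPM in control and 157 to 335 CPM in LAQ, lowest in LAQ 6. Tsc22d3, Pdk4 and Cdkn1a were also lowest in LAQ 6. Among controls the order differed, since control 1 had the lowest endothelial sum, 438 CPM, and the highest control level of Tsc22d3 and Cdkn1a. With the endothelial marker score as a covariate, their log2 fold changes were -0.13, -0.12 and -0.10. Astrocyte markers stayed between 3566 and 4007 CPM in all 8 libraries, and microglial markers between 518 and 618 CPM. None of these endothelial, mural, astrocyte or microglial markers was at 0 in all libraries. Beyond these covariates their part was not tested.

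**Figure D5:**
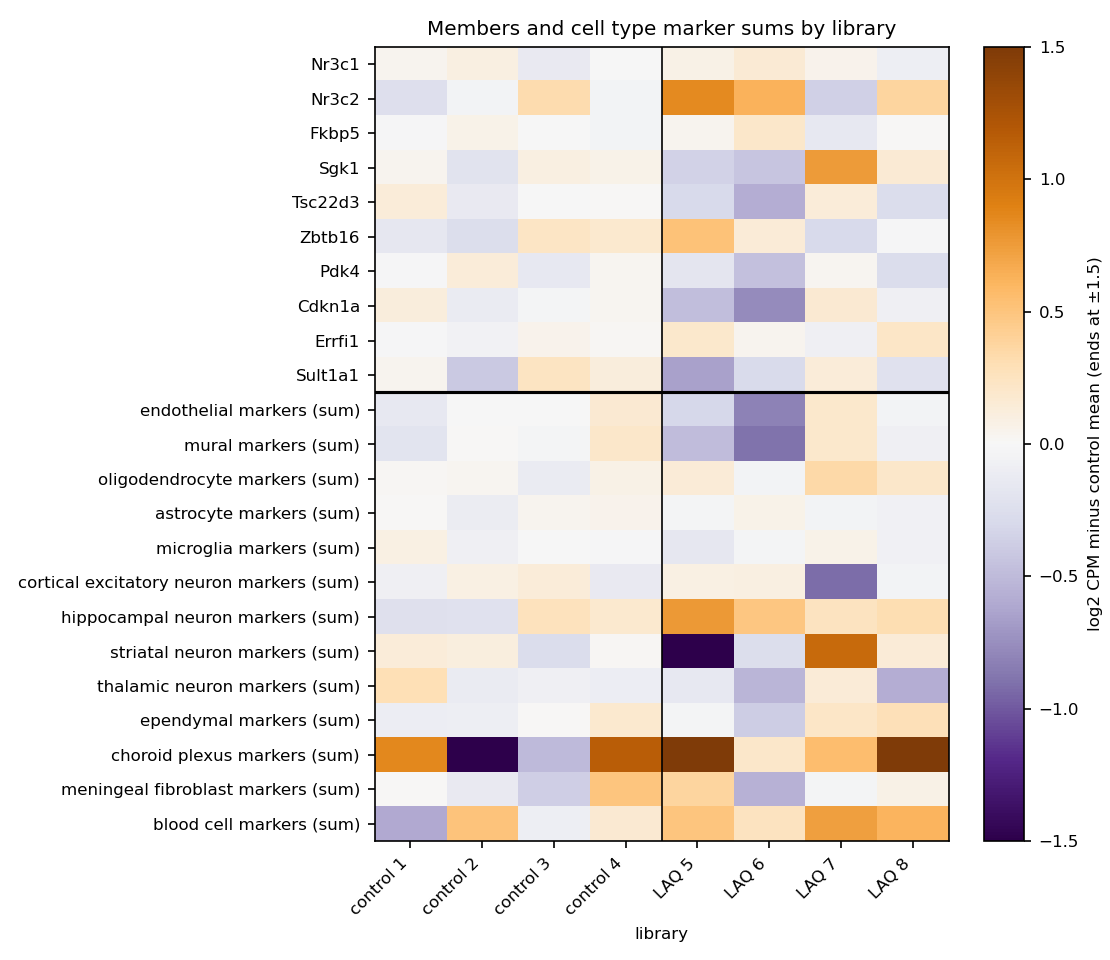
Log2 CPM of each member (upper 10 rows) and of the summed markers of 13 cell types (lower rows) in each library (columns), as the difference from the control mean, with colours ending at ±1.5. Nr3c2 and the hippocampal sum are both highest in LAQ 5. In LAQ 7 Nr3c2 is the lowest of all libraries, while the hippocampal sum is the lowest among LAQ libraries only. Tsc22d3, Pdk4, Cdkn1a and the endothelial and mural sums are all lowest in LAQ 6.

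In GRCm38 with GENCODE M21 all 10 members are protein-coding. Nr3c1 lies on chromosome 18 from 39410545 to 39519421, Nr3c2 on chromosome 8 from 76899442 to 77245012 and Fkbp5 on chromosome 17 from 28399094 to 28517527. Sgk1 lies on chromosome 10 from 21882184 to 21999903, Tsc22d3 on chromosome X from 140539528 to 140600659 and Zbtb16 on chromosome 9 from 48654297 to 48836222. Pdk4 lies on chromosome 6 from 5483351 to 5496309, Cdkn1a on chromosome 17 from 29090976 to 29100727, Errfi1 on chromosome 4 from 150853919 to 150868892 and Sult1a1 on chromosome 7 from 126672865 to 126676432. Exons of Nr3c2, Cdkn1a and Sult1a1 overlap a gene on the opposite strand over 3.82%, 7.68% and 4.05% of their exon length. Since no strand setting was given, reads there could not be assigned with certainty.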

How the data were processed

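Poly(A) RNA of 8 corpus callosum libraries was sequenced, 4 control and 4 LAQ, grouped by sample title. The authors deposited a table of raw read counts by gene symbol. They also deposited a normalized signal table, whose values were the counts over a single factor for each library. Tools named in the submitters' processing notes are STAR 2.5.2b, bcl2fastq 2.17.1.14, DESeq2 1.10.1 and HTSeq, with build GRCm38.p3. The sources used here give no annotation release, strand setting or read filter. All tests used the raw counts, and 0 columns were left unused.

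Genes were kept by filterByExpr (minimum count 10, minimum total 15), scaled by TMM and tested across all genes with edgeR 4.0.16's quasi-likelihood test (R 4.3.3, limma 3.58.1), two-sided, with Benjamini-Hochberg adjustment at 0.05. Standard errors are the fold change over the root of F. CPM used TMM-scaled library sizes, and log2 CPM a prior count of 2. Correlations used all orderings of the 8 libraries. The alternatives were median-of-ratios or no scaling, 2 other filters, DESeq2 1.42.0, voom, robust edgeR, a threshold of 0.1, 1 surrogate variable (sva 3.50.0), 3 marker scores as covariates, and leaving out each library. The main edgeR fit was tested on simulated counts, and the other steps were not. The members, the gene lists and the marker lists were chosen with earlier results of these data known. Named pathway genes were the 3 of smallest p in each list, plus Hsd11b1, Hsp90aa1 and Fkbp4. Per1 and Cebpd were added after their values were seen. Some genes that the rules name are not reported here. Drd1 was counted under the symbol Drd1a. Exon lengths came from GENCODE M21.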

Additional observations from a re-analysis of the deposited data

How the results depend on the processing

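With all 8 libraries edgeR called 0 genes, 0 members and 0 other pathway genes. The whole-table count was 25 without a filter, 129 with DESeq2, 25 with 1 surrogate variable, 282 with the cortical score and 1 with the endothelial score. It was 0 to 339 over the fits that leave out a library, with 339 without LAQ 7. Members called numbered 4 with the cortical score and 0 to 2 when a library was left out. Other pathway genes called numbered 6 with the cortical score (Hsd11b1, Abcb1a, Per1, Crhbp, Gpd1 and Cebpd) and 0 to 3 when a library was left out. Nr3c1, Tsc22d3, Pdk4, Cdkn1a and Sult1a1 kept the sign of the fold change under all 20 alternatives.

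Signs turned as follows on the log2 scale. With 1 surrogate variable Fkbp5 stood at -0.0152 and Zbtb16 at -0.0671. With the cortical score Sgk1 stood at -0.58. With the hippocampal score Nr3c2 stood at -0.14, Fkbp5 at -0.0265, Zbtb16 at -0.36 and Errfi1 at -0.0128, and with the endothelial score Fkbp5 at -0.0431. Over the fits that leave out a library, Zbtb16 ranged from -0.0609 (without LAQ 5) to 0.221 (without LAQ 7), Fkbp5 from -0.0302 (without LAQ 6) to 0.0915 (without LAQ 7) and Sgk1 from -0.187 (without LAQ 7) to 0.254 (without LAQ 6). The cause was not tested. The 3 pairs of members past the threshold became 0 as deviations from group means, where their r were 0.93, -0.94 and -0.97 and the test could give 1 pair alone no adjusted p below 0.0781. The number of such pairs was 0 to 5 when a library was left out. No paired analysis was possible because the groups share no replicate number.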
